A study of Homo sapiens with 6 samples.

Results

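Serine synthesis and folate one-carbon metabolism were examined through 10 genes of the deposited count table, taken by symbol out of the 24960 genes it lists. They encode the serine synthesis enzymes PHGDH, PSAT1 and PSPH, the serine hydroxymethyltransferases SHMT1 and SHMT2, the folate enzymes MTHFD1, MTHFD2, MTHFD1L and ALDH1L2, and the glycine-forming enzyme GCAT. All 10 genes passed the filter on low counts. RNA came from K562, a chronic myeloid leukemia (CML) line with erythroid features that carries the BCR::ABL fusion. The control group (no hyperoside) and the hyperoside (2 mM) group each had 3 libraries, the latter treated with a plant flavonol glycoside. Both groups were the same line grown in RPMI medium with fetal bovine serum, which supplies serine, glycine and folic acid. The labels name no vehicle for the control group and no separate cultures, and the sources used here do not give the time of treatment before RNA extraction. P-values therefore measure the spread between these libraries, which may be technical.

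Cells make serine from the glycolytic intermediate 3-phosphoglycerate in 3 steps, and serine then gives up a carbon to tetrahydrofolate. In the mitochondria that carbon is passed along as methylene-, methenyl- and formyl-tetrahydrofolate and leaves as formate, and in the cytosol formate is taken up again for purines, thymidylate and methionine. Proliferating leukemia cells depend strongly on this route, and several of its genes are known targets of ATF4, a transcription factor induced when amino acids run short or unfolded protein accumulates.

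Each library held 35613283 to 36754725 counts, of which the 10 genes took 0.133% to 0.145% in control libraries and 0.0830% to 0.0860% in treated ones. Single values rested on 629 to 16987 counts, the lowest for PSPH and the highest for MTHFD2. Of the 12 erythroid genes listed for K562, 6 were lower and 3 higher at an adjusted p under 0.05 from edgeR. Their sums were 5317 to 6856 CPM (counts scaled to the TMM-adjusted library size) in control libraries and 3999 to 4812 in treated ones. HBE1 and HBG2 made up most of these sums (means of 3033 and 1303 CPM in control libraries). ALAS2, KLF1 and EPOR were the 3 higher genes, and HBZ, GATA1 and TAL1 were not called. Among all tested genes, 23.2% were lower and 22.1% higher. Of 8 granulocytic and monocytic genes (5 tested), 4 were higher and none was lower, with sums of 117.6 to 120.4 CPM against 174.5 to 188.4. At an unadjusted p under 0.05 and in DESeq2 these were also 4 and none. Of 8 proliferation genes 5 were lower, with sums of 2445 to 2554 CPM against 1975 to 2032. The proliferation genes MKI67, PCNA and MCM2 were not called. Megakaryocytic genes (7 listed, 2 tested, 1 lower and 1 higher) summed to at most 35.1 CPM. Lymphoid genes (6 listed, 3 tested, 1 higher) summed to at most 45.9 CPM and bone and stroma genes (7 listed, 3 tested, 2 lower) to at most 6.74. The osteoblast genes BGLAP and SP7 had 0 to 7 counts in any library although the tissue label reads bone. The part of these shifts in the results below was not tested.

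The 10 genes lie on 9 chromosomes (hg38, positions from RefSeq on GRCh38.p14). PHGDH (NCBI gene 26227) spans chr1:119711934-119744215, PSAT1 (29968) chr9:78297125-78330093 and PSPH (5723) chr7:56011064-56051444. SHMT1 (6470) spans chr17:18327873-18363550 and SHMT2 (6472) chr12:57229711-57234935. MTHFD1 (4522) spans chr14:64388353-64460025, MTHFD2 (10797) chr2:74198615-74217565 and MTHFD1L (25902) chr6:150865702-151101887. ALDH1L2 (160428) lies at chr12:105019790-105084458 and GCAT (23464) at chr22:37807934-37817183. PSPH, SHMT1 and ALDH1L2 are on the minus strand. The use of strand in counting is not stated, and in GENCODE 29 exons of other genes covered 33.2% of the exon bases of MTHFD2 (SLC4A5 and AC006030.1), 11.04% in MTHFD1, 9.51% in SHMT2, 3.70% in SHMT1, 1.704% in ALDH1L2 and none in the other 5 genes. The analysed table has no entry under a pseudogene symbol of any member, so reads shared with such copies could not be assessed.

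A promoter window was at hand for 7 of the 10 genes (RefSeq, GRCh38.p14), and its 250 bases upstream of the start were searched on both strands because most of these genes moved together (PSPH, SHMT2 and ALDH1L2 had none). All 7 genes held a CCAAT box (CCAAT), a common binding sequence of the factor NF-Y, in at least 1 window. MTHFD1L had 4 windows, and 3 of them held the box, at the same site. Counted by window and not by gene, 32.0% of 35116 such windows contained it. PSAT1, the gene with the steepest drop, held 3 CCAAT boxes, in capitals in its upstream sequence at chr9:78296875-78297124 on the plus strand.

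PSAT1 upstream sequence: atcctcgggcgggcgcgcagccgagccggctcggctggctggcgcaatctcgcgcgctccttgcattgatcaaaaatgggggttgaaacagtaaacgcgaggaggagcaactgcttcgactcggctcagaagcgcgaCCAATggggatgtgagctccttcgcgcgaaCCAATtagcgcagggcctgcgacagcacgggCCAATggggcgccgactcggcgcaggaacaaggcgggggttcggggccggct

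The box nearest to a start in each of the 7 genes is shown in 30 bases, read on the gene's own strand, with the box in capitals (ATTGG where it is on the opposite strand). These sequences lie at chr1:119711851-119711880, chr9:78297061-78297090, chr17:18363558-18363587, chr14:64388125-64388154, chr2:74198529-74198558, chr6:150866281-150866310 and chr22:37807857-37807886, in the order printed.
PHGDH: gagtatttccgtCCAATcaaaaggagactg
PSAT1: cgacagcacgggCCAATggggcgccgactc
SHMT1: ctgcgctctctgATTGGgcgcctccggggg
MTHFD1: tctttctttccgCCAATcatttccgccagc
MTHFD2: atgcggcagggaCCAATgggtggcggaggg
MTHFD1L: gcgtgggcatctCCAATgggcgcctagcgg
GCAT: cccctagctccgATTGGctgctggagcccg

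These boxes stood 71, 52, 25, 216, 74, 40 and 65 bases before the start of the window used. The 4 windows of MTHFD1L belong to different starts, all of them inside the gene span given above. Its box therefore also lies inside that span. The genes with a box included both MTHFD1 and SHMT1, which were not called lower, as well as 5 genes that were. The core of the C/EBP-ATF response element bound by ATF4 (TGATGCAA) was found in MTHFD1L alone of the 7, in 2 of its 4 windows, and in 0.772% of all windows. Only this exact sequence within the 250 bases was searched for, so other forms or places of the element were not assessed. The core lies inside the MTHFD1L span too, after the start from which the 40 bases of its box were counted. It is shown because ATF4 is the best known regulator of this route, at chr6:150866346-150866375 with the core in capitals.
MTHFD1L: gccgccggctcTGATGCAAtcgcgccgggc

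An E-box (CACGTG, the sequence bound by MYC and related factors) was present in MTHFD1 and in the same 2 windows of MTHFD1L, against 6.34% of all windows. None of the 7 genes held the antioxidant response element core of NRF2 (TGACNNNGC), which 10.9% of windows contained.

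Hyperoside-treated cells had lower RNA levels of most of these enzyme genes. At an adjusted p under 0.05 from edgeR's quasi-likelihood test, 8 of the 10 genes were lower in the hyperoside group, where 23.2% of the 15095 tested genes were called lower. MTHFD1 alone was called higher (22.1% of all tested genes), and SHMT1 was not called. Genes that also changed by more than 2-fold, termed differentially expressed genes (DEGs) in the study, were PSAT1, ALDH1L2, PHGDH and GCAT, all lower, against 3.76% lower DEGs among all tested genes. No member was a higher DEG in edgeR (0 in DESeq2 also), against 6.43% of all tested genes. In 9 of the 10 genes, SHMT1 included, the 3 hyperoside libraries lay below the 3 control libraries without overlap, which held for 27.3% of tested genes. Across the 10 genes the log2 fold change had a median of -0.70, against 0.00 for all tested genes.

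**Figure D1:**
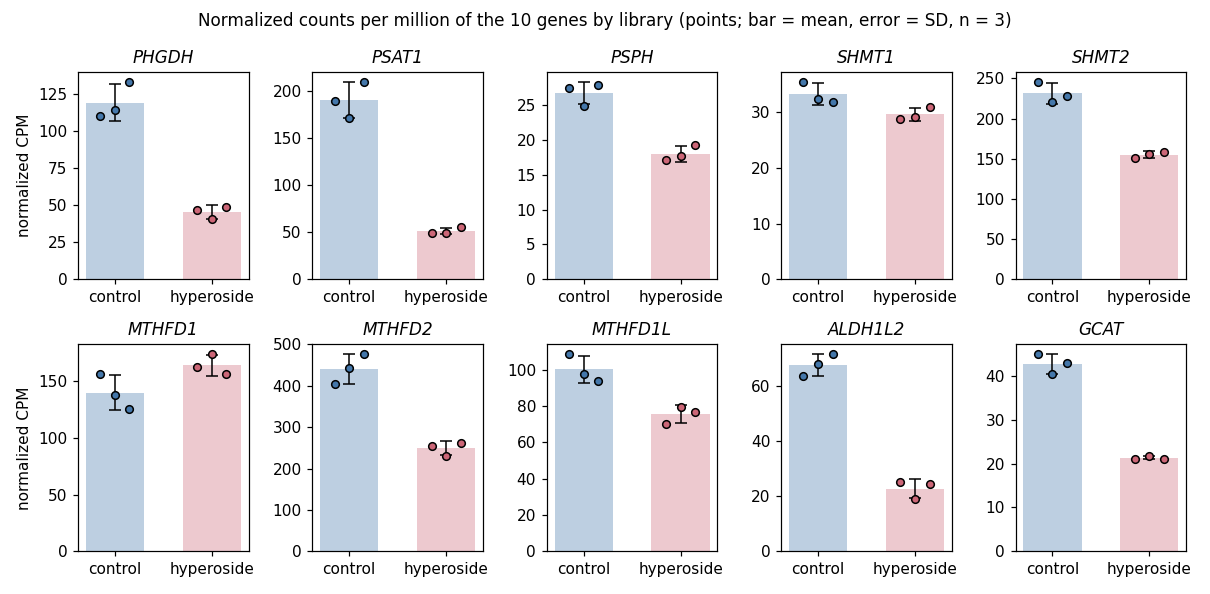
Normalized CPM (vertical axis, from 0, its own scale for each gene) of the 10 genes in the control and hyperoside groups, with 1 point per library, bars at the mean and error bars of 1 SD (n = 3 per group). Hyperoside points sit below all control points in every panel but MTHFD1, where control replicate 1 (156.3) reaches the lowest hyperoside library (156.0).

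The serine synthesis genes fell by unequal amounts, most in PSAT1, the transaminase of the second step. PSAT1 had 189.6, 171.7 and 209.7 normalized CPM in control replicates 1, 2 and 3 and 49.4, 49.2 and 55.2 in hyperoside replicates 1, 2 and 3, the order used throughout. Every hyperoside library was far below every control library, and the hyperoside mean of 51.3 ± 3.41 was 26.9% of the control mean of 190.3 ± 19.03 (SD, n = 3 each). The log2 fold change of PSAT1 was -1.89 (standard error 0.09, edgeR adjusted p = 2.27e-11), the 130th lowest of the 15095 tested genes.

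PHGDH catalyses the first step, the oxidation of 3-phosphoglycerate. It had 110.5, 114.2 and 133.6 CPM in the control libraries against 47.0, 40.4 and 49.0 in the hyperoside libraries. Control replicate 3 was the highest of the 6 libraries, as it was for PSAT1. The level dropped to 38.1% of the control mean, a log2 fold change of -1.39 (standard error 0.09, edgeR adjusted p = 3.54e-09).

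PSPH, the phosphatase that releases serine, changed least of the 3. Its values were 27.5, 24.9 and 27.96 CPM in the control libraries against 17.1, 17.7 and 19.3 in the hyperoside libraries, without overlap. The hyperoside mean was 67.4% of the control mean, and its log2 fold change was -0.57 (standard error 0.10, edgeR adjusted p = 1.87e-04).

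RNA of the mitochondrial folate enzymes was lower as well. SHMT2, which moves the carbon of serine onto tetrahydrofolate in the mitochondria, had 245.8, 221.1 and 227.4 CPM in the control libraries against 150.4, 156.0 and 158.9 in the hyperoside libraries. The groups were widely separated compared with the spread within them, and the log2 fold change was -0.58 (standard error 0.07, edgeR adjusted p = 3.49e-06).

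MTHFD2 carries out the following dehydrogenase and cyclohydrolase reactions and is scarce in most resting adult tissues. It had 403.7, 442.7 and 475.4 CPM in the control libraries against 254.5, 229.3 and 261.4 in the hyperoside libraries. This was 56.4% of the control mean, a log2 fold change of -0.83 (standard error 0.08, edgeR adjusted p = 1.56e-07). Reads in the overlaps named above could have been counted for either gene or left out, since the counting settings are not given.

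MTHFD1L, the mitochondrial enzyme that sets formate free, had 108.8, 97.9 and 94.1 CPM in the control libraries against 70.4, 79.8 and 76.9 in the hyperoside libraries. It showed the mildest decrease among the genes called lower, at a log2 fold change of -0.41 (standard error 0.08, edgeR adjusted p = 5.635e-04).

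ALDH1L2 oxidises the formyl group to carbon dioxide in the mitochondria and yields NADPH. Its values were 63.7, 68.0 and 71.5 CPM in the control replicates against 25.01, 19.01 and 24.4 in the hyperoside replicates, and the lowest control library had more than 2 times the level of the highest hyperoside library. The hyperoside mean was 33.7% of the control mean, and the log2 fold change was -1.57 (standard error 0.10, edgeR adjusted p = 3.16e-09).

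GCAT forms glycine from a threonine breakdown product in the mitochondria. It had 44.8, 40.3 and 42.8 CPM in the control libraries against 21.1, 21.6 and 21.1 in the hyperoside libraries, which lay closer together than those of any other member. With 49.9% of the control mean and a log2 fold change of -1.002 (standard error 0.09, edgeR adjusted p = 1.13e-07), GCAT stood at the 2-fold threshold, and it passed that threshold in 5 of 15 alternative analyses.

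Neither cytosolic gene was called lower. SHMT1, the cytosolic hydroxymethyltransferase, had 35.5, 32.3 and 31.9 CPM in the control libraries against 28.7, 29.2 and 31.0 in the hyperoside libraries. The ranges nearly touched, and the log2 fold change of -0.17 (standard error 0.09, edgeR adjusted p = 0.151) had a 95% interval from -0.36 to 0.03, so a modest decrease was not resolved.

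MTHFD1 joins 3 folate activities in a single cytosolic protein. It had 156.3, 137.4 and 125.8 CPM in the control libraries against 162.1, 173.9 and 156.0 in the hyperoside libraries, and control replicate 1 overlapped the hyperoside group. The log2 fold change of 0.23 (standard error 0.08, edgeR adjusted p = 0.0305) had a 95% interval from 0.06 to 0.40. This call rested on few libraries. The edgeR adjusted p of MTHFD1 was 0.0953 without control replicate 2, 0.162 without control replicate 3, 0.0775 without hyperoside replicate 1 and 0.133 without hyperoside replicate 2, and over its 15 alternatives it ranged from 2.9e-04 to 0.162.

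**Figure D2:**
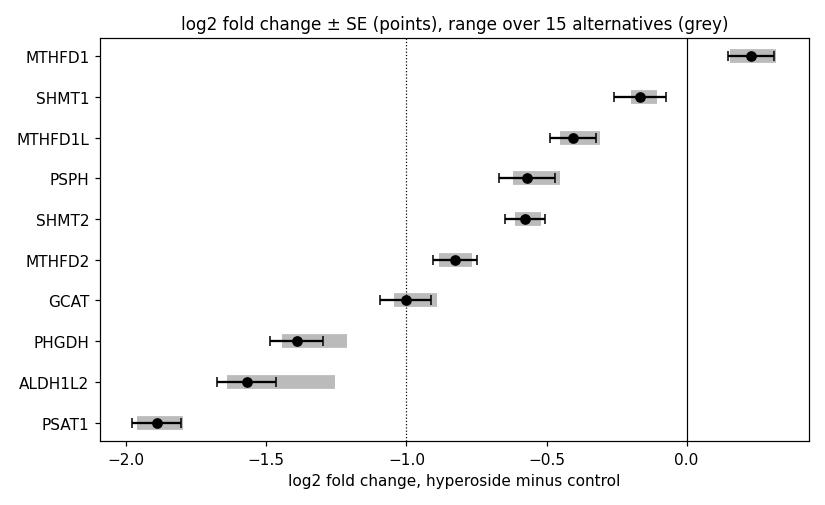
Log2 fold change of each gene (horizontal axis, hyperoside minus control), with points and error bars for the edgeR estimate ± 1 standard error, grey bars for the range over 15 alternative analyses, and a dotted line at a 2-fold decrease. PSAT1, ALDH1L2 and PHGDH lie beyond the dotted line under every alternative, GCAT on it, and MTHFD1 right of 0.

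Levels of different genes were compared per length, in FPKM (counts scaled to gene length and library total, as the authors deposited them). In the control group MTHFD2 led with 97.9 ± 10.3 FPKM, followed by SHMT2 with 84.96 ± 3.12 and PSAT1 with 84.8 ± 9.515 (SD, n = 3 each), and the ranges of these neighbours overlapped. MTHFD1 (43.5 ± 3.71), GCAT (20.2 ± 0.87), PHGDH (15.4 ± 1.93) and SHMT1 (12.1 ± 0.43) followed in clear steps, and ALDH1L2, PSPH and MTHFD1L shared the lowest positions with 7.40 to 8.12 FPKM and overlapping neighbours. In the hyperoside group SHMT2 (58.95 ± 1.19) led, MTHFD2 (57.04 ± 3.80) overlapped both SHMT2 and MTHFD1 (52.9 ± 3.11), and SHMT2 and MTHFD1 did not overlap each other. PSAT1 stood below all of them with 23.6 ± 1.405 FPKM. SHMT1 (11.2 ± 0.36) now stood above GCAT (10.4 ± 0.17), and ALDH1L2, at 2.825 ± 0.41 FPKM, was lowest with no overlap with PSPH.

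The sum of SHMT2, MTHFD2 and MTHFD1L, the mitochondrial line from serine to formate, was 183.0, 187.8 and 200.2 FPKM in the control libraries against 122.0, 118.1 and 125.3 in the hyperoside libraries. The sum of the cytosolic SHMT1 and MTHFD1 was 60.02, 54.9 and 51.9 FPKM in the control libraries against 63.6, 67.1 and 61.5 in the hyperoside libraries. That higher sum came from MTHFD1 (mean 43.5 to 52.9 FPKM), while SHMT1 was slightly lower (12.1 to 11.2). FPKM were not scaled by TMM, and in TMM-scaled CPM control replicate 1 of MTHFD1 overlapped the hyperoside group. The 3 mitochondrial genes thus made up 75.3% to 79.4% of the summed FPKM of these 5 genes in control libraries and 63.8% to 67.1% in treated ones, with no overlap. The serine synthesis genes summed to 108.0 ± 11.7 FPKM without hyperoside and 35.1 ± 2.12 with it (SD, n = 3 each), 32.5% of the control mean.

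Whether members of a pair changed by different amounts was tested on the ratio of their FPKM within each library, over 7 pairs. With 3 libraries against 3, an exact permutation test (two-sided, 20 regroupings) cannot go below p = 0.1, and each of the 7 ratios reached that value, 0.1 after adjustment over the pairs, with no overlap between the groups. SHMT2 over SHMT1 was 6.97, 6.89 and 7.17 in the control libraries against 5.27, 5.375 and 5.16 in the hyperoside libraries, a log2 difference of -0.41 (SD 0.03 within each group). MTHFD2 over MTHFD1 moved further, from 1.84, 2.30 and 2.69 to 1.12, 0.94 and 1.19, a log2 difference of -1.06.

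In control cells MTHFD2 was the more abundant of the pair in each library, and in hyperoside replicate 2 MTHFD1 was. The log2 ratio of MTHFD1L to MTHFD1 changed by -0.64 and that of MTHFD2 to its relative MTHFD2L by -0.75. Within serine synthesis, PSAT1 over PHGDH went from between 5.21 and 5.95 to between 3.64 and 4.22 (log2 difference -0.50), and PSPH over PHGDH rose from between 0.48 and 0.57 to between 0.83 and 0.997 (log2 difference 0.82). GCAT over SHMT2 changed by -0.42. ALDH1L1, the cytosolic relative of ALDH1L2, was at 0, 4 and 15 counts without hyperoside and at 11, 12 and 8 with it, and no ratio to it was formed.

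**Figure D3:**
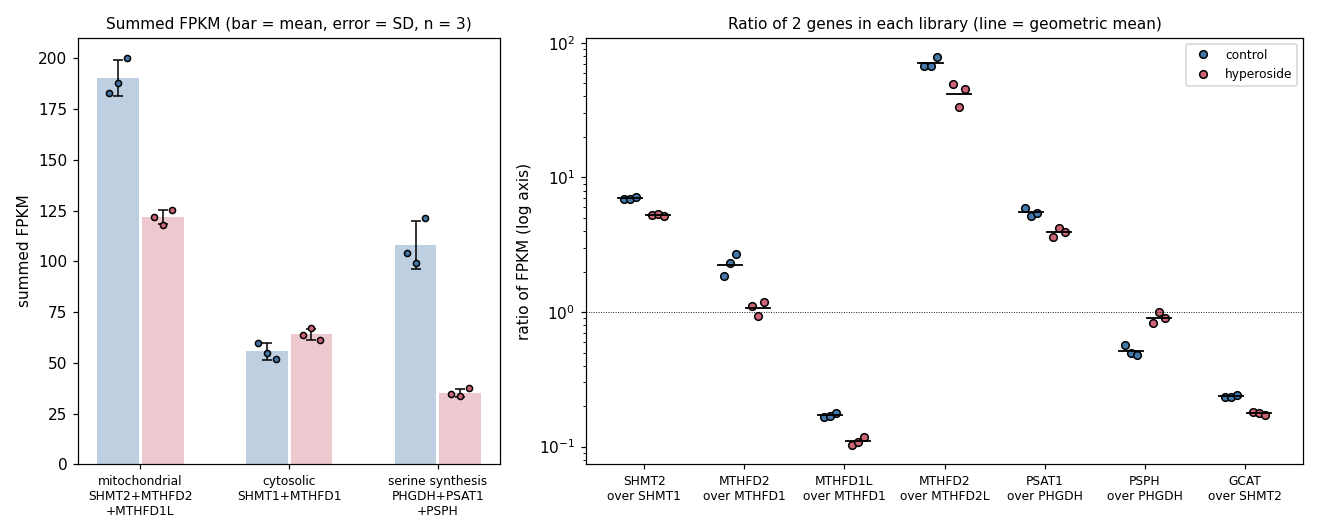
Left, summed FPKM of the mitochondrial, cytosolic and serine synthesis genes in each library (points, with bars at the mean and error bars of 1 SD, n = 3). Right, ratio of the FPKM of paired genes in each library on a log axis, with lines at the geometric mean. The mitochondrial and serine synthesis sums were lower in the hyperoside group, and 6 of the 7 ratios were lower. The cytosolic sum in FPKM was higher through MTHFD1 alone.

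The other genes of the route, grouped into lists by role, had medians nearer to 0, apart from the regulators. Of 11 genes for folate uptake, storage and reduction, 9 were tested and none was called in edgeR (0 at an unadjusted p under 0.05, and 0 in DESeq2), with a median log2 fold change of -0.06. These include SLC19A1, the reduced folate carrier (0.17, standard error 0.15), and FPGS, which retains folate in the cell (0.05, standard error 0.09). No shift in these folate supply genes was detected beside the lower levels of the 8 enzyme genes.

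Among 7 other genes of folate-converting enzymes, 2 were higher and 1 lower (22.1% and 23.2% of all tested genes), with a median of 0.31. MTHFSD rose by 0.31 on the log2 scale (edgeR adjusted p = 0.0309), and MTFMT, which formylates the mitochondrial initiator tRNA, fell by 0.44 (edgeR adjusted p = 0.0142). Of the 3 enzymes that use folate carbon for nucleotides, the purine enzymes GART and ATIC were lower (log2 fold changes -0.39 and -0.22), while thymidylate synthase TYMS was higher (0.50, edgeR adjusted p = 9.01e-05).

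Of 9 genes of glycine cleavage and choline-derived glycine, 4 were tested, and GCSH, the lipoyl carrier of the glycine cleavage system, was the single one called (log2 fold change -0.66, edgeR adjusted p = 2.21e-04). GLDC, its decarboxylase, had 0 or 1 count in each library. Of 12 genes listed for the methionine cycle, 9 were tested, with 2 lower and 1 higher in edgeR (23.2% and 22.1% of all tested genes). DESeq2 called 3 lower and 1 higher. The lower ones in edgeR were AHCYL1 (-0.60) and AHCYL2 (-0.49), named for their likeness to the adenosylhomocysteinase AHCY. AHCY itself was not called (log2 fold change -0.19, edgeR adjusted p = 0.0542). The higher one was the vitamin B12 chaperone MMACHC, from 5.77 ± 1.07 to 14.8 ± 0.80 CPM (SD, n = 3 each). Its log2 fold change was 1.36 (edgeR adjusted p = 9.725e-07).

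Of 11 genes that use or break down serine and glycine, 10 were tested, with 4 lower and 2 higher (23.2% and 22.1% of all tested genes). The strongest were CTH, cystathionine gamma-lyase of the route from serine to cysteine (log2 fold change -1.40, edgeR adjusted p = 1.15e-08), and SDSL, a serine dehydratase-like enzyme, which was higher (1.30, edgeR adjusted p = 1.535e-07). SPTLC2, a subunit of serine palmitoyltransferase, was lower (-0.60), and serine racemase SRR was higher (0.45).

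Of 13 transport genes, 10 were tested, with 4 lower and 3 higher (23.2% and 22.1% of all tested genes). Their median log2 fold change was -0.10. SFXN1, which carries serine into mitochondria, was lower, from 174.4 ± 8.61 to 117.9 ± 1.91 CPM (SD, n = 3 each; log2 fold change -0.565, edgeR adjusted p = 4.48e-06), close to the change of SHMT2. Its relatives SFXN2 (0.89, edgeR adjusted p = 2.06e-04) and SFXN3 (0.56, edgeR adjusted p = 2.2e-04) were higher, from lower levels. The neutral amino acid transporter SLC1A5 was lower (-0.81, edgeR adjusted p = 3.49e-07).

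Of 9 genes listed as regulators tied to this route, 8 were lower and none was higher in edgeR. The shares among all tested genes were 23.2% for lower calls and 22.1% for higher calls. At an unadjusted p under 0.05 from edgeR there were also 8, and DESeq2 called 8 lower and 0 higher. The 9 log2 fold changes had their median at -1.30. This list was chosen with earlier results of these data known. Whether its genes changed independently of one another was not tested, so the 8 calls are not 8 separate findings. ATF4 itself went from 546.2 ± 55.8 to 330.8 ± 21.6 CPM (SD, n = 3 each; log2 fold change -0.72, edgeR adjusted p = 1.02e-06). ATF5 (-2.004), the pseudokinase TRIB3 (-1.41), CEBPG (-1.31) and DDIT3 (-1.30) fell further. MYC, another activator of serine and folate genes, had 211.4 ± 25.01 CPM without hyperoside and 214.6 ± 10.6 with it (log2 fold change 0.02, standard error 0.08, edgeR adjusted p = 0.851). In bulk RNA a lower level in each cell and a lower share of cells expressing the gene cannot be told apart.

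**Figure D4:**
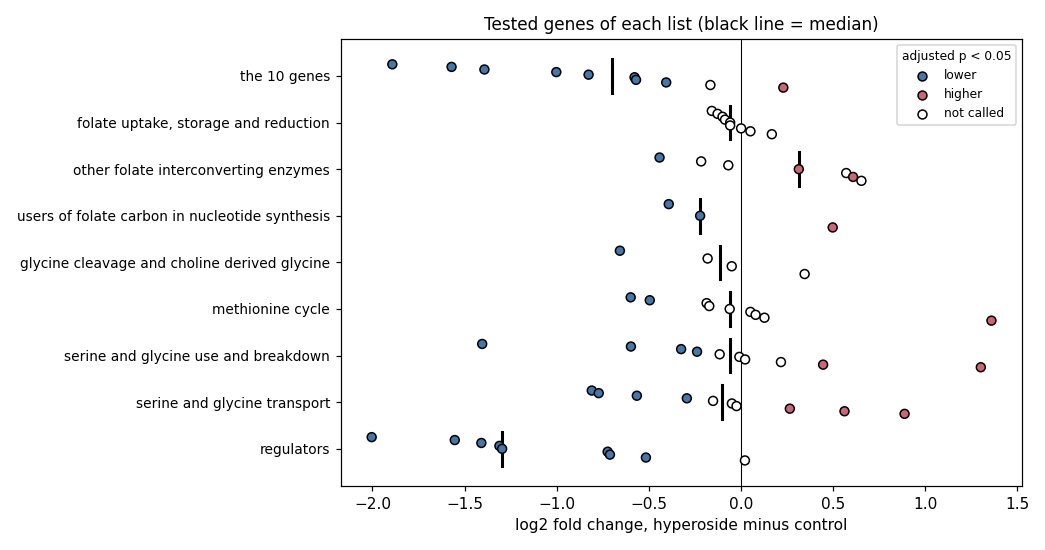
Log2 fold change (horizontal axis, hyperoside minus control) of the tested genes of each list, in blue where called lower, red where called higher and white where not called at an adjusted p under 0.05 from edgeR, with black lines at the list medians. Of the 10 enzyme genes 8 are blue, of the 9 regulators 8 are blue, and of the 9 tested folate uptake, storage and reduction genes all are white.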

How the data were processed

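RNA of 6 K562 libraries was measured. The authors deposited unnormalized gene counts and a second table of FPKM. The submitters' processing notes name fastp, HISAT2, HTSeq and the build hg38. Versions, annotation and strand setting are not given in the sources used here. Genes were kept by filterByExpr (edgeR 4.0.16 in R 4.3.3, minimum count 10, minimum total 15), scaled by TMM and compared by the quasi-likelihood test on condition alone, with Benjamini-Hochberg adjustment across 15095 genes. The study used DESeq for its own calls. The standard error is the absolute log2 fold change divided by the square root of F, and 95% intervals use the t quantile of the fit. Alternatives used DESeq2 1.42.0 and limma 3.58.1 among others. Ratios of FPKM were compared by exact permutation tests. Members, lists and motifs were chosen with earlier results of these data known. Every member was named, and up to 4 genes with the smallest adjusted p in each companion list. FPGS, MYC and ATF4 were named for their roles, after their values were seen. GNMT, TDH, SLC7A10, GP9, PF4 and IBSP were not analysed here. Some genes of the companion lists are counted but not reported here by name. The comparison was tested on simulated counts, where edgeR called 50 of 62 genes (80.6%) with a log2 change of 1. With no change simulated, 3 genes were called. Log2 changes smaller than 1 were not simulated. Tables and plots were made in Python 3.11.15 (pandas 2.3.3, matplotlib 3.10.9).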

Additional observations from a re-analysis of the deposited data

How the results depend on the processing

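The 15 alternatives were 3 other scalings, 2 filters, DESeq2, limma-trend on log2(FPKM + 1) or log2(FPKM + 0.1), a fit with a replicate block and 6 fits that each omit 1 library. None reversed a member, and 9 of the 10 genes kept their side of the threshold in all 15. The number of members lower as DEG was 3 or 4, depending on GCAT. The number of members called higher was 0 to 1 when a library was left out, since MTHFD1 then missed the threshold in 4 of 6 cases. No scaling moved the median of all genes by more than 0.05 (log2). Same-numbered libraries did not deviate together (r = -0.08, -0.03 and -0.03), no library correlated best with its own number, and the numbers were not taken as pairs. With the replicate block, 3103 genes were lower and 3026 higher instead of 3508 and 3333, 8 members were lower and 1 higher, and 1 gene instead of 2 was called higher among other folate-converting enzymes (MTHFSD was lost, edgeR adjusted p = 0.0566) and 1 instead of 2 lower among users of folate carbon (ATIC was lost, adjusted p = 0.0609). SPTLC1 and SLC1A4 also missed the threshold there (adjusted p = 0.0646 and 0.0553). Depth limits PSPH most, whose lowest value rested on 629 counts.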
